A study of Mus musculus with 16 samples.

Results

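The endoplasmic reticulum (ER) chaperones described here are 10 genes, Hspa5, Hyou1, Dnajb9, Sdf2l1, Hsp90b1, Canx, Calr, Pdia3, Pdia4 and Xbp1, of the 55487 in the deposited liver expression table. They were chosen by symbol as the folding machinery of secreted proteins together with the XBP1 transcription factor, and were matched to the table through their mouse GRCm38 gene identifiers. All 10 were found, and all 10 passed the expression filter. Secreted and membrane proteins enter the ER unfolded, where lectin chaperones, heat shock family chaperones and disulfide isomerases fold them before they leave for the Golgi. When folding lags behind load, the unfolded protein response raises these chaperones, in part through ATF6 and through XBP1, whose mRNA is spliced by the sensor IRE1 into the form that encodes the active factor. The hepatocyte is a professional secretory cell, and in the male mouse the major urinary proteins (Mup), small carriers of pheromones, are among its most abundant secreted products.

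The samples were livers of 16 male obese C57BL6/J mice, each sequenced as 1 bulk RNA library, with 4 mice in each of 4 groups. For 22 days the mice were injected under the skin each day with vehicle or with 2.5 nmol/kg of G108, a long-acting agonist of the glucagon receptor. They ate a fat-rich diet whose protein content was standard (SP) or high (HP). All were fed a high-fat diet before dosing, for 8 weeks from 10 weeks of age in the sample records, and were culled on day 25 after a 4 h fast. The methods of the study give another starting age and another day of culling, and place the start of the SP and HP diets before dosing. The 4 groups take their names from treatment and diet (vehicle SP, G108 SP, vehicle HP, G108 HP), and the comparisons asked how G108 and dietary protein moved the chaperone transcripts beside the Mup transcripts.

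Levels are in TPM, transcript abundances that divide reads by exon length, so that genes can be compared with each other, and which sum to the same total in every library. Low values lay on steps of 1 read, which gave 27.8 to 45.03 M assigned reads per library. Depth was lower with G108, at medians of 29.7 M on SP and 31.2 M on HP, than with vehicle, at 40.4 M and 37.2 M. The part of depth in the results was not tested. The chaperones had between 197 reads (Sdf2l1) and 16252 reads (Calr) in the libraries where each was lowest or highest. Since TPM are shares, a fall of abundant transcripts lifts all others, and the Mup transcripts held 45.2% ± 3.47 of TPM with vehicle on SP but 20.2% ± 2.43 with G108 on SP (SD, n = 4). Over the 11839 genes tested, the median difference was 0.60 on the log2 scale in that comparison. The results for the chaperones are therefore also given on a second scale, median-of-ratios, in which every library is divided by the level of its typical gene. That median was then -0.008. Tests were limma's moderated test on log2(value + 1), with Benjamini-Hochberg adjustment over all genes tested and a call at an adjusted p under 0.05. The labels do not say that mice of different groups were paired, and the p-values measure the spread between the mice.

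All 8 hepatocyte markers were present in every group, summing to between 14500 and 39500 TPM per library, and their range with G108 on SP, 27100 to 39500 TPM, lay mostly above that with vehicle on SP, 14500 to 27900 TPM, in the direction of the chaperone TPM. Most other marker lists also had higher median sums with G108 on SP than with vehicle on SP. All these sums are in TPM and hold the shift of the typical gene, 0.60 on the log2 scale in that comparison. They are not given on the second scale. The median sums were 60.7 against 42.8 TPM for Kupffer cells and macrophages, and 20.6 against 13.1 TPM for stellate cells and fibroblasts. They were 27.4 against 19.0 TPM for endothelial cells, 19.2 against 14.4 TPM for cholangiocytes and 1090 against 953 TPM for blood. For plasma and B cells they were 13.4 against 13.5 TPM. The part of these differences in the results below was not tested. Markers of 2 other kinds of secretory cell were low. The 9 markers of plasma and B cells summed to between 6.91 and 31.8 TPM, with 2 of them at a mean of at least 1 TPM. The 9 markers of exocrine pancreas summed to at most 1.79 TPM, with Cpb1 and Prss2 at 0 in all libraries. In bulk tissue, a change in the number of cells of a type and a change in RNA per cell cannot be told apart.

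Stretches of the chaperone promoters are shown because the ER stress response element (ERSE) is a site through which ATF6 and XBP1 are known to act. RefSeq windows of 300 bases, 250 before to 50 after the start of transcription on GRCm38.p6, were matched for 9 of the 10 genes, all but Hyou1. The ERSE, searched as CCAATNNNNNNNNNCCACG on both strands, lay in 4 of these 9 windows, beside 39 of all 32851 windows (0.119%) and 15 of the 7646 tested genes with a window (0.196%). The element was chosen for its known part in the control of such genes, so these shares are a description with no test. In each stretch below, read 5′ to 3′ on the strand of the gene, capitals mark the element, which reads as its reverse complement where it lies on the other strand.
Hspa5 (chr2:34772020-34772048, plus strand): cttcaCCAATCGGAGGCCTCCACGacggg
Hsp90b1 (chr10:86705518-86705671, minus strand): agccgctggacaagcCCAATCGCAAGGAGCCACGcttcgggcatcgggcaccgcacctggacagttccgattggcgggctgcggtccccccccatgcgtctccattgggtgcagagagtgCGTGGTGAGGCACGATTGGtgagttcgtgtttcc
Calr (chr8:84847045-84847123, minus strand): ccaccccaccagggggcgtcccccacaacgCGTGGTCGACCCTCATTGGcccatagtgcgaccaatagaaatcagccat
Canx (chr11:50325770-50325848, minus strand): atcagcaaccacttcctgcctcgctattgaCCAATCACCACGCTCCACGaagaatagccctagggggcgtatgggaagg
The element began 65 bases before the start of Hspa5 and 145 before that of Canx, both on the strand of the gene. Hsp90b1 held 2, beginning 212 and 107 bases before its start, the second on the other strand, and Calr held 1 on the other strand, from 162 bases before its start. The windows of Xbp1, Pdia3, Pdia4, Dnajb9 and Sdf2l1 did not hold these letters. The related element ATTGGNCCACG (ERSE-II), the core TGACGTGG of the unfolded protein response element and the cAMP response element TGACGTCA were in 0 of the 9 windows, beside 0.0365%, 0.676% and 1.79% of all windows. The last of these belongs to the pathway downstream of the glucagon receptor. ERSE-II shares the letters CCACG with the ERSE, and its ATTGG is CCAAT read on the other strand. The GENCODE gene model of Hspa5 begins upstream of the stretch shown for it. The window of Dnajb9 lies wholly inside its GENCODE gene model, so no bases before the start of that model were searched.

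The 10 transcripts spanned a range from 139 TPM for Calr to 9.00 TPM for Dnajb9, as means of the 16 libraries. Between them, in falling order, stood Hsp90b1 at 92.1, Hspa5 at 71.2, Pdia3 at 70.4, Xbp1 at 47.1, Pdia4 at 34.9, Canx at 30.0, Sdf2l1 at 10.99 and Hyou1 at 10.3 TPM. In TPM, the mean of all 10 was highest with G108 on SP, and that of 9 was lowest with vehicle on SP, Xbp1 being lowest with G108 on HP. After median-of-ratios scaling, 7 were highest with vehicle on HP, and 1, Canx, was highest with G108 on SP. A single mouse stood at the bottom for most of them, since vehicle SP mouse 4 had the lowest TPM of all 16 libraries for 9 genes, and the lowest scaled level for 7.

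**Figure D1:**
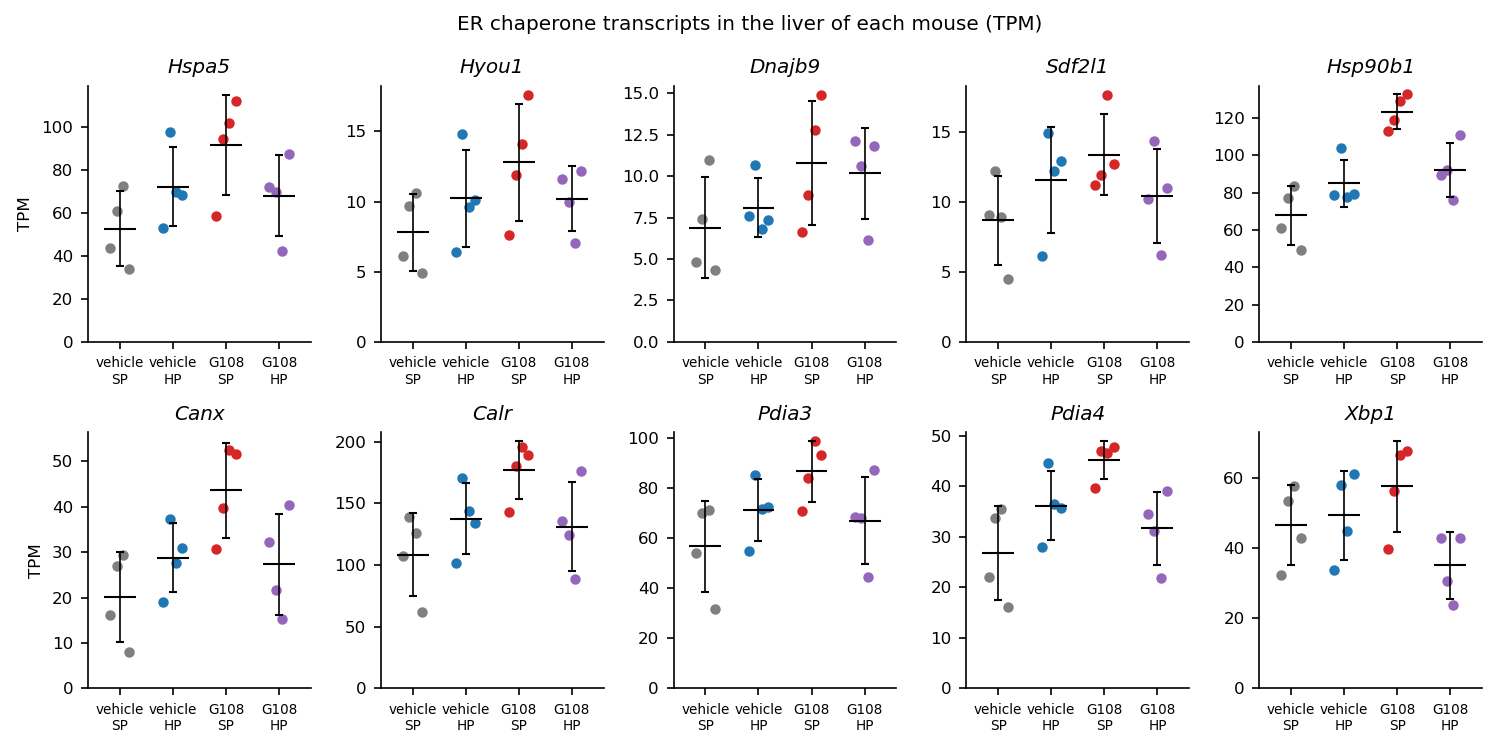
Level of each of the 10 ER chaperone transcripts in TPM (vertical axes, each from 0) in every mouse of the 4 groups (points), with the group mean and SD (bars, n = 4). The G108 SP mean is the highest of the 4 for every gene, running from 10.8 TPM for Dnajb9 to 177 TPM for Calr.

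Hspa5 (ENSMUSG00000026864, chr2:34771970-34777547) encodes BiP, the HSP70 chaperone of the ER lumen that also holds the stress sensors inactive. Its level was 43.8, 60.8, 72.5 and 33.7 TPM in vehicle SP mice 1 to 4, and 58.4, 94.4, 102 and 112 TPM in G108 SP mice 1 to 4. It was 53.1, 97.6, 69.8 and 68.5 TPM with vehicle on HP, and 72.1, 69.8, 42.4 and 87.6 TPM with G108 on HP. On SP, 3 of the 4 G108-treated mice lay above every vehicle-treated mouse, while on HP the groups overlapped. In TPM, Hspa5 rose by a log2 fold change of 0.81 ± 0.28 (SE) with G108 on SP (limma, adjusted p = 0.0171). After median-of-ratios scaling that difference was 0.042 ± 0.18, with a 95% interval from -0.33 to 0.43 (limma, adjusted p = 0.905). On HP it was -0.10 ± 0.28 in TPM (limma, adjusted p = 0.970) and -0.22 ± 0.18 when scaled.

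The partners of BiP were measured at lower levels. Hyou1 (ENSMUSG00000032115, chr9:44379490-44392369), the large HSP70 that exchanges its nucleotide, reached 6.14, 9.68, 10.6 and 4.89 TPM in the vehicle SP mice against 7.64, 11.9, 14.1 and 17.6 TPM in the G108 SP mice. It rose by 0.64 ± 0.28 on the log2 scale in TPM (limma, adjusted p = 0.0467), and differed by -0.055 ± 0.19 when scaled. The groups overlapped in TPM through G108 SP mouse 1. Dnajb9 (ENSMUSG00000014905, chr12:44205559-44210326), an ERdj4 co-chaperone that recruits BiP to IRE1, had 4.82, 7.43, 11 and 4.36 TPM with vehicle on SP and 6.66, 8.86, 12.8 and 14.9 TPM with G108 on SP. Sdf2l1 (ENSMUSG00000022769, chr16:17130138-17132383), which works with ER-resident J proteins to keep clients soluble, had 9.03, 12.2, 8.93 and 4.50 TPM against 11.2, 11.9, 17.6 and 12.7 TPM. Neither was called in TPM, with differences of 0.60 ± 0.28 for Dnajb9 and 0.62 ± 0.29 for Sdf2l1 (limma, adjusted p = 0.0618 and 0.0655). These are close to the median of all genes, 0.60, and when scaled the differences were -0.089 and -0.086.

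Dnajb9 was the one chaperone of the 10 with a difference above 0 for G108 on HP on both scales, 0.27 ± 0.28 in TPM and 0.16 ± 0.20 when scaled, and neither was called in limma. Its values on HP were 7.59, 10.7, 6.79 and 7.34 TPM with vehicle and 12.1, 10.6, 6.18 and 11.8 TPM with G108. G108 HP mouse 3 alone lay below the vehicle-treated mice there. Hyou1 on HP ranged from 6.39 to 14.8 TPM with vehicle and from 7.02 to 12.2 TPM with G108, and Sdf2l1 from 6.15 to 14.9 TPM and from 6.18 to 14.3 TPM.

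Hsp90b1 (ENSMUSG00000020048, chr10:86690209-86705509) encodes GRP94, the HSP90 of the ER, and had the narrowest range over the 16 libraries, 2.69-fold in TPM. It had 60.8, 77.0, 83.8 and 49.4 TPM in the vehicle SP mice and 113, 119, 129 and 133 TPM in the G108 SP mice, with no overlap. The rise of 0.88 ± 0.18 on the log2 scale in TPM, 1.84-fold, had the smallest adjusted p of the 10 (limma, 0.00129). When scaled, the 16 libraries ran only from 72.6 to 97.7, a 1.35-fold range, and the difference on SP was 0.11 ± 0.094 with a 95% interval from -0.086 to 0.31. On HP, vehicle gave 78.9, 104, 77.8 and 79.3 TPM and G108 gave 89.4, 92.1, 75.8 and 111 TPM, a difference of 0.11 ± 0.18 (limma, adjusted p = 0.923) whose scaled value was -0.012 ± 0.094. G108 SP and G108 HP did not overlap in TPM, yet their scaled difference was 0.017 ± 0.094.

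The calnexin and calreticulin cycle binds glycoproteins through their trimmed sugar. Canx (ENSMUSG00000020368, chr11:50293961-50325673), the membrane-bound lectin of the cycle, had the largest fold change of the 10. It stood at 16.2, 27.0, 29.4 and 7.99 TPM in the vehicle SP mice and at 30.6, 39.8, 52.5 and 51.6 TPM in the G108 SP mice. The groups did not overlap, and the rise was 1.20 ± 0.36 on the log2 scale in TPM (limma, adjusted p = 0.00885). Canx was also the chaperone with the largest scaled difference above 0, 0.45 ± 0.27 (limma, adjusted p = 0.378), where the scaled values ran 23.4, 28.0, 33.0 and 11.7 with vehicle and 26.1, 30.1, 34.2 and 35.2 with G108. Without vehicle SP mouse 4 the scaled difference was 0.16 ± 0.21 (limma, adjusted p = 0.804). On HP, Canx was 19.1, 37.3, 27.6 and 31.0 TPM with vehicle and 32.2, 21.6, 15.2 and 40.3 TPM with G108, and the difference of -0.12 ± 0.36 was not called (limma, adjusted p = 0.972).

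Calr (ENSMUSG00000003814, chr8:84841850-84846934), the soluble lectin and the most abundant transcript of the set, had 107, 139, 126 and 62.0 TPM with vehicle on SP against 143, 180, 196 and 189 TPM with G108 on SP. Its rise in TPM was 0.75 ± 0.25 (limma, adjusted p = 0.0146), without overlap, and its scaled difference was -0.017 ± 0.16. Pdia3 (ENSMUSG00000027248, chr2:121413775-121438687), also named ERp57, the disulfide isomerase that Canx and Calr recruit, had 53.9, 69.9, 71.2 and 31.8 TPM against 70.8, 84.1, 98.8 and 93.1 TPM. It rose by 0.66 ± 0.25 in TPM (limma, adjusted p = 0.0255), with overlap between G108 SP mouse 1 and vehicle SP mouse 3. When scaled, Pdia3 in the G108 SP mice lay within 60.4 and 64.3, and the difference from vehicle was -0.11 ± 0.15. On HP, Calr ranged from 102 to 171 TPM with vehicle and from 88.3 to 176 TPM with G108, and Pdia3 from 55.0 to 85.3 and from 44.6 to 87.4 TPM.

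Pdia4 (ENSMUSG00000025823, chr6:47796141-47813430), known as ERp72, is a disulfide isomerase outside the lectin cycle. Its level was 22.0, 33.7, 35.4 and 16.1 TPM in the vehicle SP mice and 39.6, 46.9, 46.6 and 47.7 TPM in the G108 SP mice, without overlap. The rise was 0.79 ± 0.23 in TPM (limma, adjusted p = 0.00744) and the scaled difference 0.040 ± 0.14. On HP, where vehicle gave 28.0, 44.6, 36.4 and 35.6 TPM and G108 34.4, 31.2, 21.9 and 39.0 TPM, the scaled levels were 33.6, 41.8, 39.9 and 40.7 against 33.6, 33.0, 26.1 and 31.5. G108 HP mice 2, 3 and 4 lay below every vehicle-treated mouse on that scale, and mouse 1 overlapped the lowest of them. The scaled difference of -0.32 ± 0.14 had an unadjusted p of 0.0337 and was not called after adjustment over all genes (limma, adjusted p = 0.371).

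Xbp1 (ENSMUSG00000020484, chr11:5520659-5525893) encodes the transcription factor of the set. Gene-level TPM count its spliced and unspliced mRNA together, so what follows is the total transcript. It stood at 32.4, 53.3, 57.6 and 42.9 TPM with vehicle on SP, 33.6, 57.8, 44.8 and 61.2 TPM with vehicle on HP, 39.7, 56.3, 66.6 and 67.7 TPM with G108 on SP, and 42.9, 30.6, 23.7 and 42.9 TPM with G108 on HP. The 4 groups overlapped widely. Of the 10 genes it had the smallest difference for G108 on SP in TPM, 0.30 ± 0.25 (limma, adjusted p = 0.273), under the median of all genes, and the most negative on HP, -0.49 ± 0.25 (limma, adjusted p = 0.479).

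After median-of-ratios scaling, Xbp1 read 46.9, 55.3, 64.7 and 63.1 in the vehicle SP mice, 40.4, 54.1, 49.1 and 70.1 in the vehicle HP mice, 33.9, 42.6, 43.4 and 46.2 in the G108 SP mice, and 41.9, 32.4, 28.3 and 34.7 in the G108 HP mice. The G108 groups did not overlap with vehicle SP, and 3 of the 4 G108 HP mice lay below every vehicle HP mouse. On SP the difference was -0.46 ± 0.17 (limma, unadjusted p = 0.0157, adjusted p = 0.177) and on HP -0.61 ± 0.17 (limma, unadjusted p = 0.00252, adjusted p = 0.111), neither of which was called. Between G108 HP and vehicle SP, a comparison in which drug and diet change together, Xbp1 fell by 0.73 ± 0.17, to 0.603 of the vehicle level (limma, adjusted p = 0.0292). In TPM the same comparison gave -0.41 ± 0.25 (limma, adjusted p = 0.296). With TPM rescaled without Mup and mitochondrial genes it gave -0.82 ± 0.21 and without Mup genes alone -0.88 ± 0.27, neither of them called (limma, adjusted p = 0.0514 and 0.108), so the call rests on the scaling. With each of the 16 libraries left out in turn, Xbp1 remained called in 10 of 16 fits, with adjusted p from 0.0161 to 0.0970 (limma, scaled values). Most of these 10 left out a vehicle HP or G108 SP mouse, which is not in the comparison, and the difference stayed at -0.731. Of the mice compared, only vehicle SP mouse 1 or G108 HP mouse 1 could be left out with the call kept (limma, adjusted p = 0.0183 and 0.0251). The call was lost without vehicle SP mouse 2, 3 or 4 (adjusted p = 0.0667, 0.0923 and 0.0633) or without G108 HP mouse 2, 3 or 4 (adjusted p = 0.0791, 0.0970 and 0.0697). Of the mice compared, G108 HP mouse 3 had 37.3% of its TPM in mitochondrial genome transcripts, where the other 15 libraries had 13.8% to 27.4%. The part of that share in the Xbp1 result was not tested.

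A ratio within each library needs no scaling between libraries. As a percentage of the geometric mean of the other 9 transcripts, Xbp1 stood at 144, 166, 170 and 285% with vehicle on SP, 135, 132, 136 and 182% with vehicle on HP, 120, 135, 133 and 134% with G108 on SP, and 120, 91.0, 109 and 103% with G108 on HP. On SP the vehicle-treated mice lay above all G108-treated mice, on HP likewise, and G108 HP lay at or below G108 SP. The group means were 191, 146, 130 and 106% in the order given. The ratio was chosen after the values had been seen, and is given as a description with no test. The highest value belonged to vehicle SP mouse 4, whose chaperones, not whose Xbp1, were low.

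**Figure D2:**
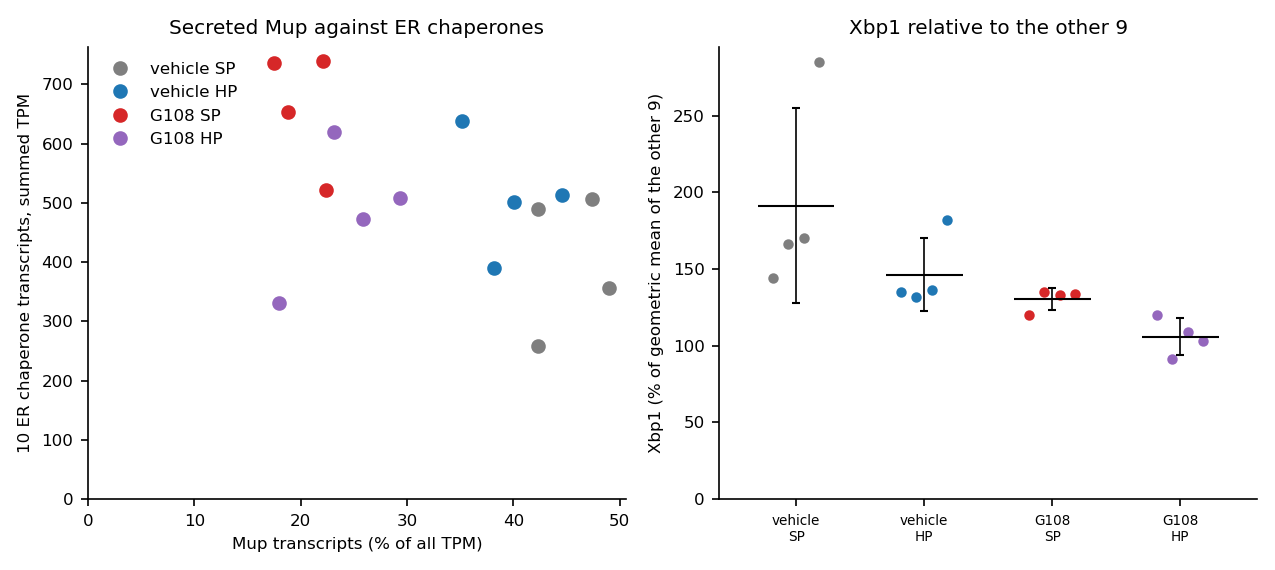
Left, summed TPM of the 10 ER chaperone transcripts (vertical axis) against the share of TPM held by the 22 Mup genes (horizontal axis, %), with 1 point per mouse and every G108-treated mouse to the left of every vehicle-treated mouse. Right, Xbp1 as a percentage of the geometric mean of the other 9 chaperone transcripts in each mouse (points) with the group mean and SD (bars, n = 4), falling from 191% with vehicle on SP to 106% with G108 on HP.

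For G108 against vehicle on SP, 7 of the 10 transcripts rose in TPM and 0 fell, where 77.6% of all 11839 genes were called in either direction and 77% were called higher, so the members' share was near the background. Their median log2 fold change was 0.71, beside 0.60 for all genes, and 9 of the 10 lay above that median. The groups did not overlap for 4 of them, against 56.4% of all genes. With the scaled values none of the 10 passed (0 called), where 2.72% of all genes were called. At an unadjusted p under 0.05 stood 1 of the 10 and 2098 of all 11839 genes (limma). The median of the 10 was then -0.036, and 1 of the 10, Xbp1, had groups that did not overlap, against 9.21% of genes. Leaving out vehicle SP mouse 4 brought the count in TPM from 7 to 3 (Hsp90b1, Canx and Pdia4), where 72.8% of all genes were called. Leaving out G108 SP mouse 4 brought it to 4, the same 3 with Calr, where 69.2% were. Without vehicle SP mouse 4 the median of the 10 was 0.49 in TPM and -0.18 when scaled.

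On HP, 0 of the 10 were called in TPM, beside a background of 1.11% called. At an unadjusted p under 0.05 stood 0 of the 10 and 1410 of all 11839 genes (limma). The median of the 10 was -0.10, against 0.092 for all genes, and 3 of the 10 lay above 0, beside 70.4% of all genes. When scaled, 0 were called against 1.22% of genes. Unadjusted, 2 of the 10 had a p under 0.05, Xbp1 and Pdia4, as did 1337 of all 11839 genes (limma). Here 9 of the 10 lay below 0, with a median of -0.23 against -0.004 for all genes, of which 49.2% lay above 0. For G108 HP against vehicle SP, 0 were called in TPM (4.49% of genes were). At an unadjusted p under 0.05 stood 1 of the 10, Hsp90b1, and 2878 of all 11839 genes (limma). When scaled, 1 of the 10 fell, Xbp1, where 2.83% of genes were called and 1.42% called lower. It was also the 1 gene of the 10 whose groups did not overlap, against 8.47% of genes.

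**Figure D3:**
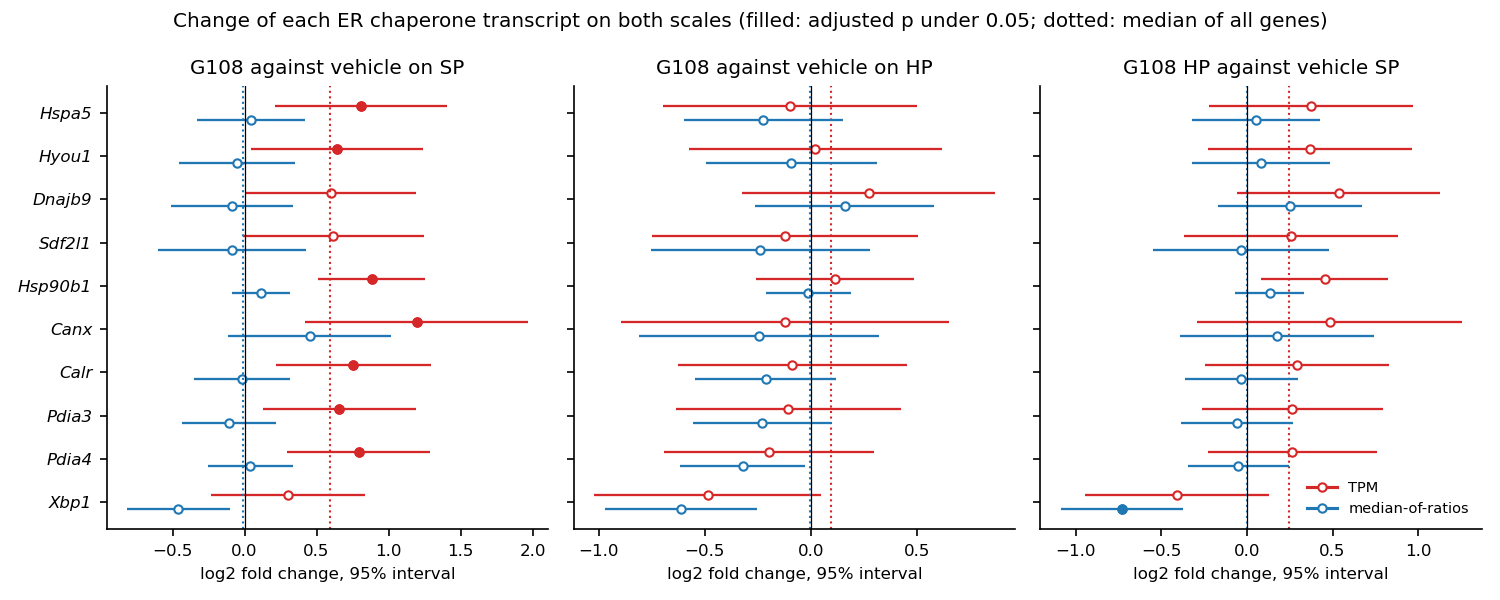
Log2 fold change with 95% interval (horizontal axis) of each ER chaperone transcript in 3 comparisons, in TPM (red) and after median-of-ratios scaling (blue), with filled points where limma's adjusted p was under 0.05 and dotted lines at the median of all genes tested. On SP the red points gather around the red dotted line at 0.60 and the blue ones around 0, with Xbp1 lowest at -0.46.

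For dietary protein, no gene of the 11839 tested passed the test on either scale. In TPM, HP against SP with vehicle gave differences above 0 for all 10 transcripts, beside 80.4% of all genes. The median of the 10 was 0.38, beside 0.14 for all genes. Of the 10, 0 were called (0% of all genes) and 0 had an unadjusted p under 0.05, beside 374 of all genes (limma). HP against SP with G108 gave TPM differences below 0 for all 10, where 5.55% of all genes lay above 0. The median of the 10 was -0.43, beside -0.35 for all genes. None of the 10 was called (0% of all genes), with 3 of the 10, and 5325 of all genes, at an unadjusted p under 0.05 in limma. The 3 were Xbp1 at -0.71 ± 0.25, Hsp90b1 at -0.43 ± 0.18 and Pdia4 at -0.53 ± 0.23. The groups did not overlap for Hsp90b1 and Pdia4, 2 of 10, beside 20.7% of all genes. After scaling, 9 of the 10 lay above 0 with vehicle and 6 with G108, beside 48.8% and 50.3% of all genes. The medians of the 10 were 0.18 and 0.014. In either, 0 were called (0% of genes each) and 0 had an unadjusted p under 0.05, beside 466 and 639 of all genes (limma).

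The interaction of G108 and diet, which tests whether the G108 effect differed between diets, was below 0 for all 10 in TPM, from -1.32 ± 0.52 for Canx to -0.33 ± 0.40 for Dnajb9. The median of the 10 was -0.78, beside -0.49 for all genes, of which 6.61% lay above 0. None of the 10 was called (0% of all genes), while 7 had an unadjusted p under 0.05, as did 5685 of all 11839 genes, and the lowest adjusted p was 0.0799 for Hsp90b1 and Pdia4 (limma). When scaled, 0 were called (0% of genes) and 0 had an unadjusted p under 0.05, beside 854 of all genes (limma). Above 0 lay 1 of the 10, Dnajb9 at 0.25 ± 0.28, beside 50.7% of all genes. The number of calls depended on single libraries. With array quality weights, 7 of the 10 were called for the interaction, where 61.4% of all genes were, and 7 for HP against SP with G108, where 71.8% were, all 7 lower in both. Leaving out G108 SP mouse 1, G108 HP mouse 4 or vehicle SP mouse 2 gave 5, 5 and 3 calls for the interaction, beside 33.7%, 44% and 29.2% of all genes. The first 2 of these gave 1 and 2 calls for HP against SP with G108, beside 25.5% and 42.8%.

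Summed, the 10 transcripts held 356, 490, 507 and 258 TPM in the vehicle SP mice, 390, 638, 501 and 513 TPM in the vehicle HP mice, 521, 653, 736 and 739 TPM in the G108 SP mice and 509, 472, 331 and 620 TPM in the G108 HP mice. The G108 SP mice all lay above the vehicle SP mice, while on HP the groups overlapped. Against them, the 22 Mup genes held 49.0, 42.3, 47.4 and 42.3% of TPM with vehicle on SP, 38.2, 35.2, 40.1 and 44.6% with vehicle on HP, 22.4, 18.8, 17.5 and 22.1% with G108 on SP and 29.3, 25.9, 18.0 and 23.1% with G108 on HP. Every G108-treated mouse lay below every vehicle-treated mouse. The ratio of Mup to chaperone transcripts ran from 1640 TPM of Mup per TPM of chaperone in vehicle SP mouse 4 to 237 in G108 SP mouse 3, with group means of 1200 ± 369 with vehicle and 314 ± 82.7 with G108 on SP, and 801 ± 181 and 510 ± 92.0 on HP (SD, n = 4). Both parts of this ratio come from the same library, so that it does not depend on the scaling between libraries. On HP, where the Mup shares did not overlap either, the chaperone sums did.

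Mup genes are close copies of each other that share reads, so single members are uncertain. In TPM, 17 of the 22 fell and 1 rose with G108 on SP, with a median of -1.28, and after scaling 18 fell and 0 rose. Of all genes, 0.608% were called lower there in TPM and 1.39% when scaled. The 3 most abundant, Mup22, Mup10 and Mup12, changed by -0.80 ± 0.14, -0.82 ± 0.13 and -1.65 ± 0.20 in TPM (limma, adjusted p = 0.000818, 0.000531 and 0.000137), and by -1.57, -1.60 and -2.43 when scaled. On HP, 12 fell in TPM and 8 when scaled, beside 0.296% and 0.583% of all genes called lower. Of 31 other abundant secreted proteins of hepatocytes, 24 rose in TPM on SP, where 77% of all genes were called higher. The median of the list was 0.83, beside 0.60 for all genes. When scaled, 0 were called, beside 2.72% of all genes, with a median of 0.052. At an unadjusted p under 0.05 stood 5 of the list and 2098 of all 11839 genes (limma). Among the most abundant, Alb, which encodes albumin, differed by 0.80 ± 0.27 in TPM (limma, adjusted p = 0.0145) and by 0.023 ± 0.17 when scaled, close to the values of Hspa5. Serpina1c, an alpha-1 antitrypsin, differed by 1.19 ± 0.34 and 0.41 ± 0.26, and Apoa2, an apolipoprotein of HDL, by 0.18 ± 0.17 and -0.60 ± 0.24.

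From mouse to mouse, the levels of the chaperones were correlated. Over the 16 libraries after median-of-ratios scaling, the 45 pairs had a median Pearson r of 0.521, from -0.382 (Xbp1 with Hsp90b1) to 0.952 (Pdia3 with Calr). Without Xbp1 the median was 0.66 and the lowest 0.212, and with group means removed the median of all 45 was 0.575. The points share their libraries, and the values describe these livers with no test. Hspa5, Pdia3 and Pdia4 followed the mean standardized level of the 10 most closely (r = 0.934, 0.929 and 0.904), and Hsp90b1 and Xbp1 least (r = 0.496 and 0.376). That mean was lowest in vehicle SP mouse 4 and G108 HP mouse 3, at -1.75 and -1.20 SD, and highest in vehicle HP mouse 2, at 1.17 SD.

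The 8 genes whose levels were most like that mean, members aside, were Ssr3, Yipf5, Slc22a28, Lman1, Tmed7, Ugt3a2, Farsb and Psmd14, with r from 0.961 down to 0.925 over the 16 libraries. With group means removed the same 8 had r between 0.924 and 0.953. Ssr3 is a subunit of the translocon-associated complex, Lman1 (ERGIC-53) the cargo receptor for glycoproteins leaving the ER, and Tmed7 a p24 cargo receptor, while Slc22a28 is a solute carrier, Ugt3a2 a glycosyltransferase of the ER membrane, Farsb a tRNA synthetase subunit and Psmd14 a proteasome subunit. Ssr3 differed by 0.77 ± 0.26 with G108 on SP in TPM (limma, adjusted p = 0.0149) and by 0.028 ± 0.15 when scaled, and Lman1 by 0.74 ± 0.27 (limma, adjusted p = 0.0213) and 0.009 ± 0.16. Pdia6, a further disulfide isomerase, ranked 20 with r = 0.898.

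The other genes of the secretory pathway were read by count. In TPM with G108 on SP, transcripts of ER co-chaperones and nucleotide exchange rose in 7 of 9 cases, of disulfide formation in 11 of 12, of glycan trimming in 5 of 5, of translocation into the ER in 17 of 18, of the oligosaccharyltransferase in 9 of 9, of ER-associated degradation in 10 of 13 and of ER to Golgi traffic in 16 of 17. The medians lay between 0.70 and 0.86, beside 0.60 for all genes, and 0 fell. Of all genes, 77% were called higher in that comparison. After scaling, 0 of these rose and 1 fell, Sec24a, a cargo adaptor of the COPII coat, by 0.39 ± 0.087 (limma, adjusted p = 0.0243), and the medians lay between 0.024 and 0.17. At an unadjusted p under 0.05 (limma) stood 1, 0, 1, 3, 0, 1 and 2 genes of these lists, in the order given. Of all 11839 genes, 2098 stood there, and 1.33% were called higher and 1.39% lower when scaled.

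From each list, the genes called on SP on either scale whose scaled differences were furthest from 0 are named. In TPM, 77% of all genes were called higher and 0.608% lower, so this rule favors genes that rose in TPM. The scaled values of the named genes therefore do not stand for their lists. Among co-chaperones, all tested genes ran from -0.365 to 0.462 when scaled, with a median of 0.07. Dnajc3, the BiP co-chaperone p58IPK, differed by 1.19 ± 0.37 in TPM and 0.46 ± 0.28 when scaled, close to Canx. Sil1, a nucleotide exchange factor of BiP, differed by 0.88 ± 0.18 and 0.16 ± 0.090, and Sec63, which couples BiP to the translocon, by 0.84 ± 0.20 and 0.14 ± 0.11. Among disulfide genes, Qsox1 differed by 1.05 ± 0.39 and 0.33 ± 0.31, Ero1l, the oxidase that recharges the isomerases, by 0.71 ± 0.19 and 0.19 ± 0.12, and Pdia5 by 0.95 ± 0.16 and 0.21 ± 0.11. Pdia5 was the one gene of the 7 lists called for G108 HP against vehicle SP in TPM, at 0.64 ± 0.16 (limma, adjusted p = 0.0295), and missed the threshold when scaled, at 0.34 ± 0.11 (limma, adjusted p = 0.116). In the glycan cycle, Mogs and Prkcsh, which trim glucose, differed by 0.97 ± 0.22 and 0.86 ± 0.23 in TPM, and by 0.26 ± 0.11 and 0.13 ± 0.14 when scaled. Uggt1, which adds it back to misfolded proteins, differed by 0.42 ± 0.16 in TPM and by -0.16 ± 0.083 when scaled. These 3 were called in TPM and not when scaled (limma, adjusted p = 0.238, 0.605 and 0.326).

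For the signal peptidase subunits Spcs1 and Spcs3 and the signal receptor Srpr, the TPM differences were 1.43 ± 0.34, 1.00 ± 0.23 and 1.06 ± 0.35, and the scaled ones 0.72 ± 0.25, 0.31 ± 0.13 and 0.31 ± 0.25. The oligosaccharyltransferase genes Stt3a, Stt3b and Tusc3 gave 0.84 ± 0.22, 0.90 ± 0.25 and 0.67 ± 0.19 in TPM, and 0.21, 0.20 and 0.28 when scaled. Selenos, Vcp and Os9, which take part in the removal of misfolded proteins, gave 1.18 ± 0.25, 1.13 ± 0.32 and 0.99 ± 0.22 in TPM, and 0.44, 0.37 and 0.23 when scaled. Sec23a and Sar1a of the COPII coat gave 1.01 ± 0.26 and 1.00 ± 0.19 in TPM, and 0.33 and 0.27 when scaled. All of these passed the test in TPM and none when scaled, where their adjusted p lay at 0.129 or above (limma).

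**Figure D4:**
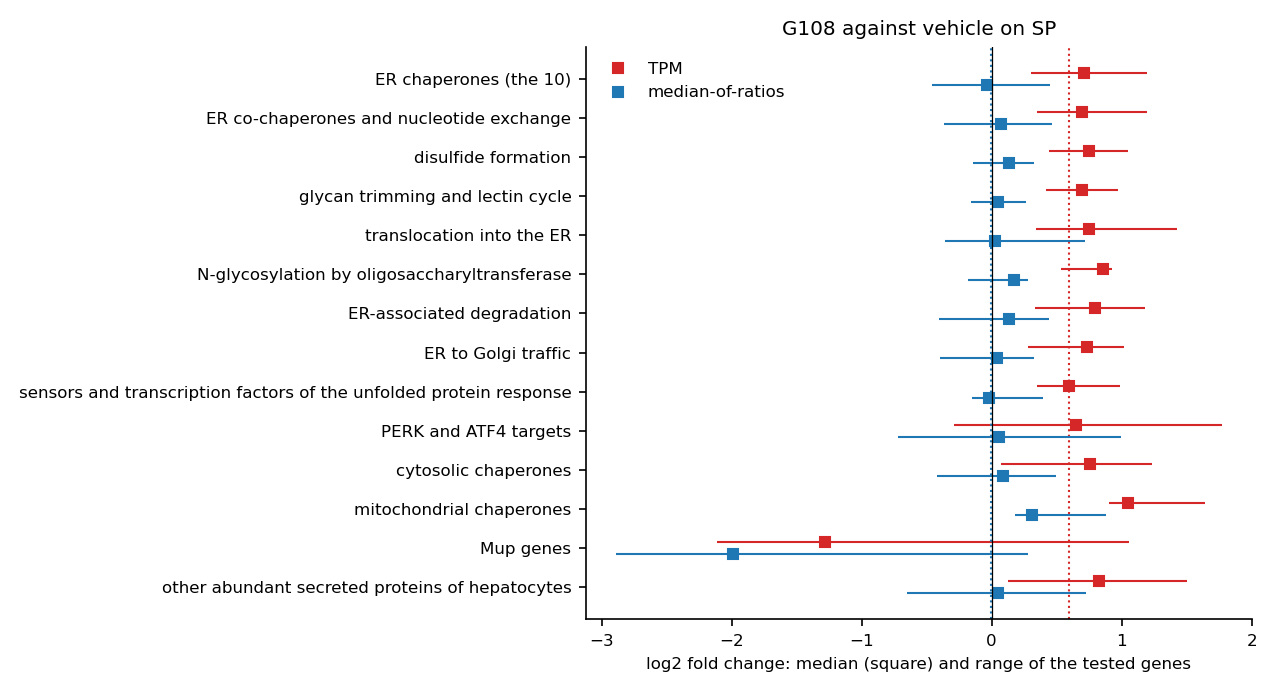
Median (squares) and range (lines) of the log2 fold change for G108 against vehicle on SP (horizontal axis) over the tested genes of each list, in TPM (red) and after median-of-ratios scaling (blue), with dotted lines at the median of all genes tested. The Mup genes stand at -1.28 and -1.99, the 10 ER chaperones at 0.71 and -0.036, and the mitochondrial chaperones at 1.05 and 0.31, beside dotted lines at 0.60 and -0.008.

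Of 7 tested sensors and transcription factors of the unfolded protein response, 5 rose in TPM with G108 on SP, with a median of 0.60. Of all genes, 77% were called higher in that comparison. When scaled, 0 of the 7 were called, beside 2.72% of all genes. At an unadjusted p under 0.05 stood 1 of the 7 and 2098 of all 11839 genes (limma). Atf6, the ER membrane factor that acts on the ERSE, stood at 2.31 ± 0.965 TPM with vehicle on SP and 5.48 ± 1.62 TPM with G108 on SP, a difference of 0.99 ± 0.26 in TPM (limma, adjusted p = 0.00410) and 0.40 ± 0.18 when scaled (limma, adjusted p = 0.277). Its relative Atf6b and the protease Mbtps1 that cleaves it differed by 0.60 ± 0.21 and 0.66 ± 0.15 in TPM, and by -0.054 ± 0.14 and 0.054 ± 0.079 when scaled. Targets of PERK and ATF4, the arm of the response that also answers amino acid shortage, rose in 6 of 9 rows in TPM, beside the same 77%. Of these 6 rows, 2 were identifiers of 1 gene, Ddit3. When scaled, 0 of the 9 rows rose, beside 1.33% of all genes called higher. At an unadjusted p under 0.05 stood 3 of the 9, beside the same 2098 of all genes (limma). Atf5 of that arm went from 90.9 ± 50.7 to 267 ± 47.3 TPM, by 1.77 ± 0.38 (limma, adjusted p = 0.00182) and by 1.00 ± 0.31 when scaled (limma, adjusted p = 0.109). Ddit3, which encodes CHOP, is carried by 2 gene identifiers in the annotation, between which reads may be split, and is therefore given without values.

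Chaperones of other compartments were set beside those of the ER. Cytosolic chaperones rose in 12 of 14 cases in TPM on SP, with a median of 0.76, where 77% of all genes were called higher. When scaled, 0 rose, where 1.33% of all genes were called higher, with a median of 0.088. At an unadjusted p under 0.05 stood 1 of the 14 and 2098 of all 11839 genes (limma). Cct5, Hsp90ab1 and Hspa4 differed by 1.23 ± 0.30, 1.15 ± 0.29 and 0.91 ± 0.24 in TPM and by 0.50 ± 0.20, 0.38 ± 0.18 and 0.20 ± 0.14 when scaled. Mitochondrial chaperones rose in 6 of 6 cases in TPM, beside the same 77%, with a median of 1.05. When scaled, 0 rose, beside the same 1.33%, and the median was 0.31. Of the 6, 4 had an unadjusted p under 0.05, as did 2098 of all 11839 genes (limma). Hspa9, the HSP70 of the mitochondrion, went from 31.6 ± 15.3 to 92.2 ± 25.2 TPM and Hspd1, its HSP60, from 47.9 ± 20.9 to 119 ± 26.6 TPM, with scaled differences of 0.88 ± 0.30 and 0.62 ± 0.25 (limma, adjusted p = 0.149 and 0.211). Grpel1 differed by 1.04 ± 0.34 in TPM and 0.32 ± 0.24 when scaled. The median of the mitochondrial list thus lay above that of the ER chaperones on both scales, which was not tested.

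Other tested genes whose promoter window held the ERSE numbered 11. Of these, 5 were called higher in TPM with G108 on SP, where 77% of all genes were, with a median of 0.38 beside 0.60 for all genes. When scaled, 0 were called higher, where 1.33% of all genes were, with a median of -0.32 beside -0.008. Among these 11, and named after their values were seen, Dnajc3 stood at 1.19, Pdia6 at 0.91 and Syvn1, a ubiquitin ligase of ER-associated degradation, at 0.33 ± 0.23 in TPM. When scaled, Syvn1 differed by -0.41 ± 0.28 with G108 on SP and by 0.36 ± 0.28 on HP, neither of them called (limma, adjusted p = 0.438 and 0.717).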

How the data were processed

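Liver RNA of 16 mice was sequenced, with 1 library per mouse and 4 mice per group taken from the sample records. The values deposited by the authors are TPM per Ensembl gene. Reads were checked with FastQC 0.11.8, aligned to GRCm38 with HISAT2 2.0.5 and counted with featureCounts, and the counts were divided by exon length. All 16 columns were used. Depth was recovered from the steps of low values, of which 98.84% of 128184 lay within 0.02 of a whole read. The recovered reads bound the precision by counting error only. The libraries were no duplicates, since at most 0.11% of values were identical and r within groups lay between 0.929 and 0.989.

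The 11839 genes whose TPM averaged 1 or more were fitted on log2(TPM + 1) with limma 3.58.1 in R 4.3.3, with 4 group means over 16 libraries, an intensity trend and Benjamini-Hochberg adjustment over all of them. The model was run on simulated data whose noise was independent between genes. That run held no shift shared by most genes, so it does not bear on the shift in TPM. Median-of-ratios factors came from 11591 genes. Symbols and coordinates are from GENCODE on GRCm38, and promoter windows from RefSeq. Protein features planned for the members were not run. Beside the members, the genes named were the 3 most changed called genes of each list on SP by the scaled values, the 3 most abundant Mup and secreted genes and the 8 most alike. The members and lists were chosen with earlier results of these data known.

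The labels do not say that mouse numbers pair the samples, and no pairing was used in the main fit. Same-numbered mice had r of deviations from -0.575 to 0.527, with 8 of 24 pairs over 0.1. With 4 mice per group, these values cannot exclude a shared block. The alternatives were a pseudocount of 0.1, no filter, a minimum average of 5 TPM, other scalings, a fit of the 2 groups alone, a replicate block by mouse number, weights for library quality and each library left out. The block with scaling and rescaling without Mup genes alone were added after the data were seen.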

Additional observations from a re-analysis of the deposited data

Results flagged for a closer look

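Of 40 groups of 4 mice, 1 for each chaperone and group, 2 held a mouse far from the others in TPM by Dixon's ratio, a number that chance would give at about 1 in 20 groups. Hsp90b1 was 104 TPM in vehicle HP mouse 2, where the others had 77.8 to 79.3 TPM (ratio 0.942). Pdia4 was 39.6 TPM in G108 SP mouse 1, where the others had 46.6 to 47.7 TPM (ratio 0.859). In neither case did scaling leave the mouse as far from its group, with Hsp90b1 at 97.7 beside 85.3 to 94.8 and Pdia4 at 33.8 beside 30.3 to 35.5.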

How the results depend on the processing

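In TPM with G108 on SP, 7 of the 10 chaperones were called higher. That count stayed within 5 to 8 under the other pseudocount, filters, groups and weights. The share of all genes called in these fits ran from 32.7% with no filter to 83.8% with weights. The count became 0 with median-of-ratios scaling and with TPM rescaled without Mup genes, with or without mitochondrial genes. There, 1.91% to 2.72% of all genes were called. With each library left out it lay between 3 and 8 in TPM, where 66.2% to 79% of all genes were called. It was 0 in every scaled fit, where 1.33% to 3.98% of all genes were called. The fall of Xbp1 for G108 HP against vehicle SP was 1 call when scaled, 0 in TPM and 0 with TPM rescaled without Mup genes, with or without mitochondrial genes (limma, adjusted p = 0.0514 without both, 0.108 without Mup genes alone), and with each library left out the number of members called there was 0 to 1. Array quality weights gave 7 calls, not 0, for HP against SP with G108 and for the interaction, beside 71.8% and 61.4% of all genes. Leaving out each library gave 0 to 2 and 0 to 5 there, in fits where up to 42.8% and 44% of all genes were called. For G108 on HP leaving out each library gave 0 to 1, the 1 being Xbp1 when scaled and without vehicle HP mouse 1 (limma, adjusted p = 0.0499). In that fit 1.2% of all genes were called. The causes of these changes were not tested. With the mouse number as a replicate block, 7 members were called for G108 on SP, beside 75.6% of all genes, and 0 in each of the other 5 comparisons. With the block and scaling, 1 was called, Xbp1 for G108 HP against vehicle SP (limma, adjusted p = 0.0398), where 1.95% of all genes were. For G108 on SP, 0 were called with the block and scaling, beside 1.8% of all genes. With 4 mice per group, the 95% interval for Canx with G108 on SP ran from 0.42 to 1.97 on the log2 scale in TPM, and the spread between mice limits what can be called.

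In scaled fits without vehicle SP mouse 4, Hspa5 stood at -0.075 and Pdia4 at -0.099 for G108 on SP. Signs also reversed in the following fits. With median-of-ratios scaling, with or without the replicate block, they were, for G108 on SP, Calr at -0.017, Dnajb9 at -0.089, Xbp1 at -0.46, Sdf2l1 at -0.086, Pdia3 at -0.11 and Hyou1 at -0.055; for G108 on HP, Hsp90b1 at -0.012 and Hyou1 at -0.093; for HP against SP with G108, Dnajb9 at 0.34, Hsp90b1 at 0.017, Sdf2l1 at 0.052, Hspa5 at 0.010, Pdia3 at 0.049 and Hyou1 at 0.14. With vehicle, Xbp1 stood at -0.12 for HP against SP, and the interaction of Dnajb9 at 0.25. For G108 HP against vehicle SP they were Calr at -0.032, Sdf2l1 at -0.034, Pdia4 at -0.050 and Pdia3 at -0.057. Without Mup and mitochondrial genes they were, for G108 on SP, Dnajb9 at -0.034, Xbp1 at -0.40, Sdf2l1 at -0.027 and Pdia3 at -0.043, and on HP, Hsp90b1 at -0.089 and Hyou1 at -0.17. In the diet comparisons Dnajb9 stood at 0.23 and Hyou1 at 0.011 with G108, Xbp1 at -0.12 with vehicle, and the interaction of Dnajb9 at 0.13. For G108 HP against vehicle SP, Calr stood at -0.11, Sdf2l1 at -0.11, Pdia4 at -0.13, Hspa5 at -0.023 and Pdia3 at -0.13. Without Mup genes alone, Xbp1 was at -0.23 on SP, Dnajb9 at -0.023, Hsp90b1 at -0.21 and Hyou1 at -0.28 on HP, Dnajb9 at 0.005 for diet with G108 and Xbp1 at -0.063 for diet with vehicle. For G108 HP against vehicle SP, Calr was at -0.18, Hsp90b1 at -0.012, Sdf2l1 at -0.17, Pdia4 at -0.19, Hspa5 at -0.091, Pdia3 at -0.20 and Hyou1 at -0.051. Array quality weights put Dnajb9 at -0.32 and Xbp1 at -0.20 for diet with vehicle, the interaction of Dnajb9 at 0.13, and Canx at -0.032, Pdia4 at -0.040 and Pdia3 at -0.020 for G108 HP against vehicle SP. With libraries left out, the G108 difference on HP ran from -0.24 to 0.086 for Calr, -0.33 to 0.12 for Canx, -0.37 to 0.083 for Sdf2l1, -0.24 to 0.11 for Hspa5, -0.24 to 0.073 for Pdia3 and -0.16 to 0.20 for Hyou1, that of Dnajb9 for diet with G108 from -0.25 to 0.14, and that of Xbp1 for diet with vehicle from -0.081 to 0.25.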
